A study of Mus musculus with 8 samples.

Results

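Doxorubicin (DOX), an anthracycline cancer drug that damages the heart, was compared with saline in whole hearts of mice labelled MT+/+, that is, with intact Mt1 and Mt2, the genes of the main metallothioneins. The comparison took in 4 of the 8 arrays of the series, 2 from DOX-treated and 2 from saline-treated MT+/+ mice, chosen by their labelled group. The mice were males aged 6 to 8 weeks. DOX was given by injection into the peritoneum at 15 mg per kg, once, controls got saline in the same volume, and the hearts were collected on day 4. The other 4 arrays came from mice labelled MT-/-, null for both metallothioneins, 2 after the same dose of DOX and 2 after saline, and served to estimate the spread and as a separate comparison. The sources used here do not give the strain, and each replicate is labelled a biological one. Each array gave 1 intensity, called the signal, for each of 45037 probe sets, which are groups of short probes against a transcript.

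DOX binds DNA, traps topoisomerase II on it and passes electrons to oxygen, and the heart muscle cell, rich in mitochondria and modest in antioxidant defence, is its best known non-tumour target. Metallothioneins are small cysteine-rich proteins that bind zinc and copper and scavenge radicals, and metals, oxidants and glucocorticoids induce their genes. A heart also holds fibroblasts, which make collagen, endothelial cells, pericytes and resident macrophages, so a whole-heart array reads all of them at once.

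The arrays were alike in brightness, with median signals of 80 to 87.4 over the 8 arrays. The correlation of log2 values between replicates was 0.978 for saline and 0.980 for DOX, against 0.950 to 0.968 between a saline and a DOX array. The array's own control probes gave a 3' to 5' signal ratio for actin, a measure of RNA integrity, of 1.15 and 1.24 on the saline arrays and 0.948 and 1.05 on the DOX arrays, so the ratio was lower with DOX, and its part in the results was not tested. The same ratio for Gapdh was 0.984 and 1.03 with saline and 1.03 and 1.02 with DOX, and overlapped. Actb itself read 8949 and 9689 and then 5384 and 4043 (-0.96 ± 0.14, adjusted p = 0.0121 in limma). The heart muscle genes Myh6, Tnnt2 and Actc1 stood at or above percentile 99.9 of every array. The Y-linked Eif2s3y gave signals of 306 to 447 on all 8 arrays, and Xist gave 55.7 to 132. Mt1 read 3722 and 4034 on the saline arrays and 6735 and 9285 on the DOX arrays of MT+/+ mice, and 4667 and 5322 and then 12549 and 12850 on the corresponding arrays labelled MT-/-. Mt2 read 452, 485, 1210 and 2732 in MT+/+ and 968, 1018, 2218 and 2213 in MT-/- in the same order. The probe sets of the targeted genes were therefore not lower on the arrays labelled MT-/-. Mt1 with either treatment and Mt2 with saline read higher there without overlap, and Mt2 with DOX overlapped. The sources used here do not say whether these probe sets lie in the altered part of the genes, and the genotype is used as labelled throughout.

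After DOX, 161 genes rose and 188 fell in MT+/+ hearts among 13008 genes measured, at an adjusted p of 0.05 in limma with Benjamini-Hochberg adjustment over all 24751 probe sets tested. These are 1.24% and 1.45% of the genes measured, the background for the counts given below. At an unadjusted p of 0.05, 4117 probe sets passed, and 613 passed after adjustment. The log2 change of the genes called had a median of 0.82 among those that rose and -0.93 among those that fell, and the change exceeded 2-fold for 52 and 86 of them and 4-fold for 3 and 11. Both DOX arrays lay above both saline arrays for each gene that rose and below for each that fell, but so they did for 22.1% and 24.3% of all genes measured. The median change of all genes was -0.02. The value after ± is limma's standard error, and changes are log2 differences of DOX minus saline on the log2(intensity + 16) scale, which understates dim genes.

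With 2 arrays a group, the count rested on each array. It was 88 without saline 1, 34 without saline 2, 79 without DOX 1 and 26 without DOX 2, and, since the arrays labelled MT-/- share in the estimate of the spread, 190 without either saline array of that genotype and 439 or 438 without its DOX 1 or DOX 2. The share of rises among the calls was 46.1%, and 56.2% with arrays aligned on their medians instead of quantiles (167 higher and 130 lower). When the replicate number was added as a block, 804 genes rose and 731 fell, or 6.18% and 5.62%, with all 349 calls retained. Counts with the block are given beside the others below where they differ by more than 1.5 times. Only 20 genes were called whichever 1 of the 8 arrays was left out: Cirbp, Ephx1, Map3k6, Myh7, Myh14, Myom2, Trim54 and Tspan4 among those that rose, and 2210407C18Rik, Col15a1, Col5a2, Cxcl9, H2-Aa, H2-Ab1, Hbb-b2, Lcp1, Nrep, Ptprc, Srsf6 and Tpm4 among those that fell. Every other gene named below as having changed lost its call without at least 1 array.

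Below the 10 largest rises (Myh7, Cirbp, Fam107a, Dbp, Mt2, Spock2, Sult1a1, Fkbp5, Igfbp3 and Myom2), the next 30 genes by size rose by 1.08 to 1.48 log2 units. Spock2 rose by 1.85 ± 0.25 on its brightest probe set, while its other read -0.02. Plin4, a coat protein of lipid droplets, read 539 and 576 on the saline arrays and 1425 and 1844 on the DOX arrays, a change of 1.45 ± 0.17 (adjusted p = 0.00715). Car4, a carbonic anhydrase anchored at the cell surface, went from 385 and 310 to 922 and 1070 (1.42 ± 0.16, adjusted p = 0.00645). Ptgds, which makes prostaglandin D2, was at 2340 and 3474 and then 6631 and 9217 (1.42 ± 0.18, adjusted p = 0.00894). In these genes the DOX arrays were clear of the saline arrays by more than the gap between replicates. Fmo2, a flavin monooxygenase, went from 333 and 370 to 892 and 1158 (1.43 ± 0.22, adjusted p = 0.0168). Among the cytoskeletal and signalling genes, Myh14, a non-muscle myosin heavy chain, read 232 and 258 and then 664 and 656, close agreement within each group (1.34 ± 0.13, adjusted p = 0.005). Pim3, a serine/threonine kinase, read 806 and 656 and then 1702 and 1791 (1.17 ± 0.23, adjusted p = 0.037). Spata2, an adaptor of the deubiquitinase CYLD, was dim, at 81.1 and 90.9 and then 205 and 181 (1.08 ± 0.14, adjusted p = 0.00895). Mylip, a ubiquitin ligase for the LDL receptor, rose by 1.10 ± 0.17, and Ddrgk1, an endoplasmic reticulum protein of the UFM1 pathway, by 1.10 ± 0.18.

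Some of these 30 need care because other probe sets of the gene read differently. Tfdp2, a partner of the E2F transcription factors, rose by 1.48 ± 0.31 on its brightest probe set, but its 3 others ranged from -0.22 to 1.45. Etv5, an ETS transcription factor, rose by 1.15 ± 0.22 with others at 0.28 to 0.75. Pim3, Shld1 (1.20 ± 0.23), a subunit of the shieldin complex at DNA breaks, and H2ac19 (1.12 ± 0.15), a histone H2A, were read by probe sets that the array's naming marks as matching more than 1 transcript. The remaining members were Tent5a (1.32 ± 0.28), Galnt15 (1.25 ± 0.21), Tspan4 (1.21 ± 0.14), Smim4 (1.20 ± 0.20), Rhobtb1 (1.18 ± 0.18) and 2310010J17Rik (1.17 ± 0.17), and Nqo1, Ephx1, Srsf5, Trim54, Bnip3, Tef, Herpud1, Aox1, Ppp1r15a, Map3k6 and Ankrd1, which belong to groups described below.

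Below the 10 largest falls (Alas2, Srsf6, Col3a1, 2210407C18Rik, Hbb-b2, Aplnr, Nrep, Cd74, H2-Aa and Col1a1), the next 30 genes fell by 1.30 to 2.02 log2 units. Klra5, of the Ly49 family of natural killer cell receptors, read 167 and 309 on the saline arrays and 40 and 50.5 on the DOX arrays, a change of -2.02 ± 0.25 (adjusted p = 0.00732); the family's members are close in sequence, so which of them was read is uncertain. Efnb3, an ephrin ligand, read 372 and 362 and then 102 and 114 (-1.69 ± 0.23, adjusted p = 0.0111). Itgb6, an integrin subunit that activates latent TGF-beta, read 177 and 162 and then 46.0 and 48.8 (-1.57 ± 0.19, adjusted p = 0.00719). In these dim probe sets both DOX arrays were far below both saline arrays, and they were below in every gene called lower. Brighter cytoskeletal genes fell too. Tpm4, a tropomyosin found outside the adult sarcomere, read 1498 and 1956 and then 660 and 638 (-1.46 ± 0.14, adjusted p = 0.005). Tuba1a, an alpha-tubulin, read 1863 and 1955 and then 920 and 656 (-1.37 ± 0.26, adjusted p = 0.0342) on a probe set marked as matching other transcripts. Dynll1, a dynein light chain, read 1148 and 1767 and then 547 and 625 (-1.35 ± 0.21, adjusted p = 0.0168). Sh3bgr, abundant in heart and skeletal muscle, read 3497 and 3289 and then 1128 and 1319 (-1.50 ± 0.22, adjusted p = 0.0132). Fstl1, a secreted glycoprotein, read 955 and 1032 and then 430 and 335 (-1.44 ± 0.17, adjusted p = 0.00719). Opa3, a mitochondrial protein, fell by 1.55 ± 0.29 on its brightest probe set while its 4 others lay between -0.14 and 0.32, so its call rests on that probe set. Dab2, an endocytic adaptor, fell by 1.32 ± 0.20, Rflnb, a filamin-binding protein, by 1.33 ± 0.18, Ctsc, a lysosomal protease, by 1.30 ± 0.16, Mgl2, a macrophage lectin, by 1.34 ± 0.18, and Lrrc3b by 1.36 ± 0.26.

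**Figure D1:**
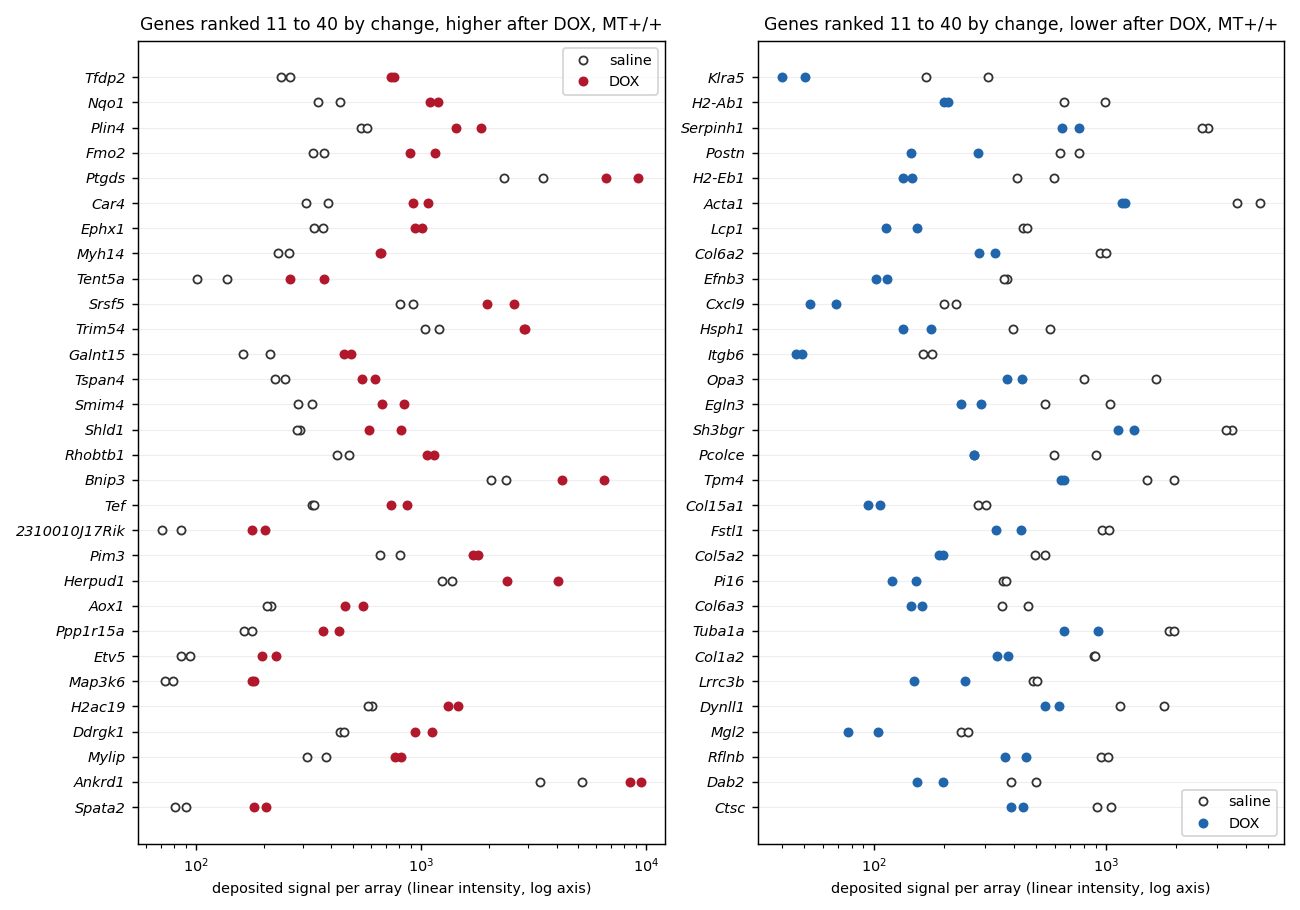
Deposited signal (linear intensity on a log axis) on each MT+/+ array for the genes ranked 11 to 40 by size of rise (left) and of fall (right), 1 row per gene, with open points for the 2 saline arrays and filled points for the 2 DOX arrays. In all 60 rows the DOX points are clear of the saline points, as the rule that chose the genes requires; 57 of the 60 genes were also called in the mice labelled MT-/-, and 11 kept their call whichever 1 array was left out.

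Of the 349 genes called, 130 fall in at least 1 of 62 lists of genes of known function or cell type, and 219 in none. The lists hold 1813 genes, of which 1507 were measured, that is, passed the filter on dim probe sets. The plot of the lists shows where the calls lie: to the left among collagens, macrophage markers and MHC class II genes, and to the right among glucocorticoid receptor targets, clock genes and NRF2 targets.

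**Figure D2:**
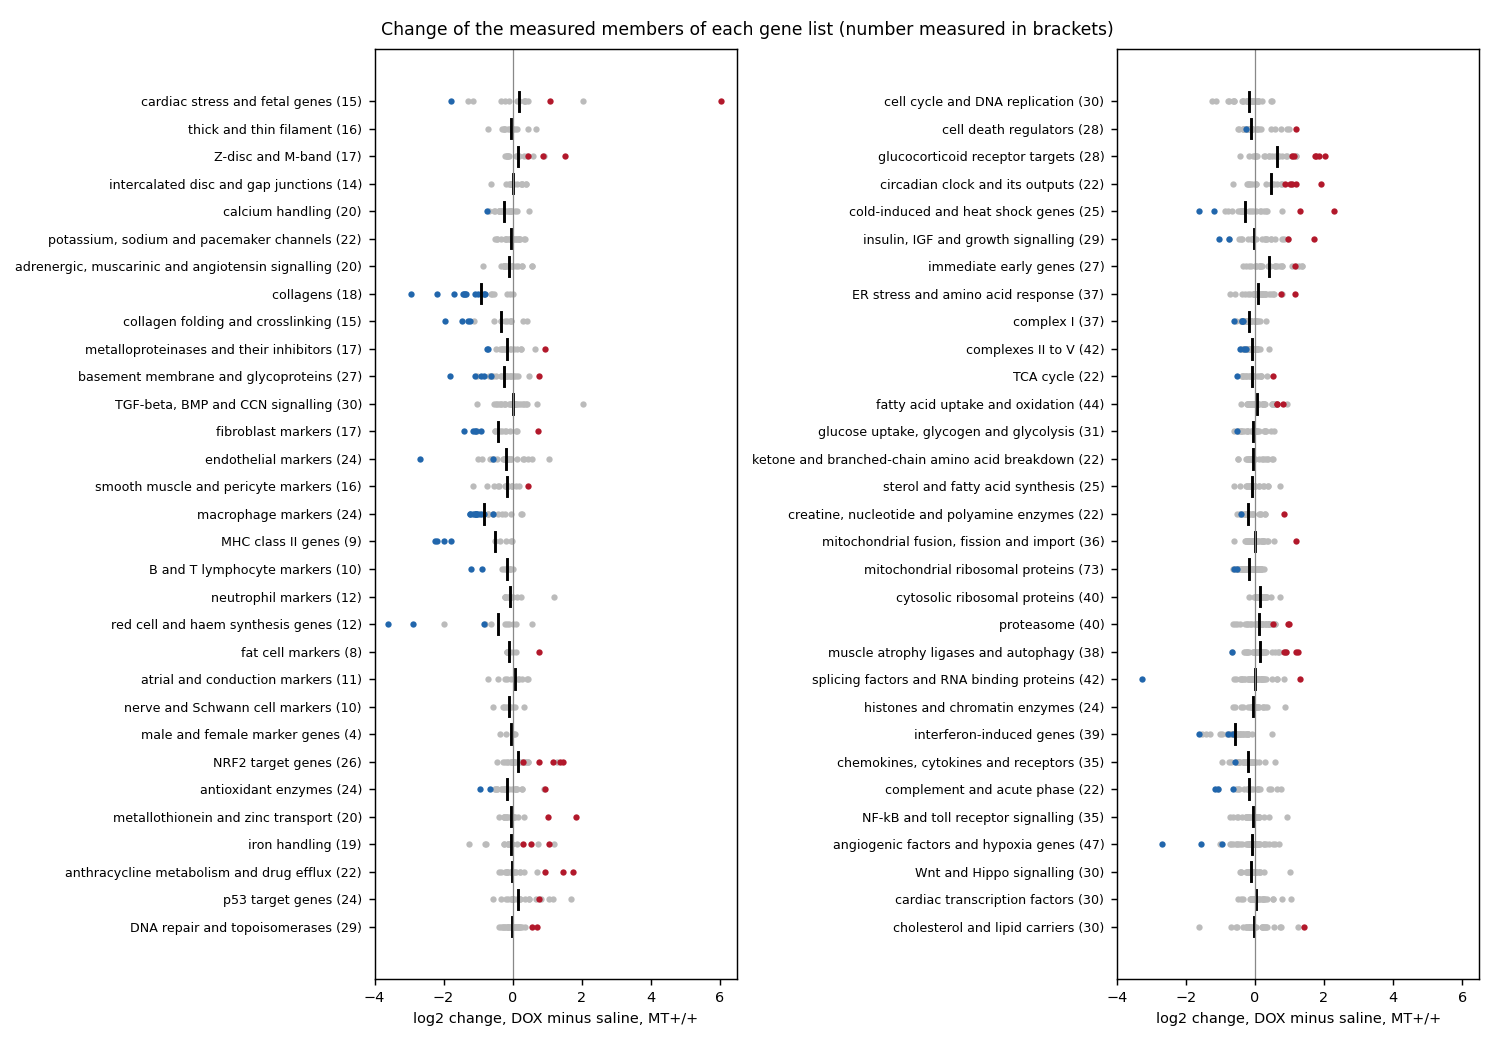
Log2 change, DOX minus saline in MT+/+, of the measured members (points) of each of 62 gene lists, with the list's median as a black bar and the number measured in brackets; red points were called higher, blue points lower and grey points were not called. The medians run from -0.92 for collagens to 0.65 for glucocorticoid receptor targets, and most lie near the all-gene median of -0.02.

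Collagens fell together. Of 20 collagen genes listed, 18 were measured, 11 fell, none rose, and the median change was -0.92. Below Col3a1 and Col1a1, Col6a2, a chain of the microfibrillar collagen VI, read 937 and 994 on the saline arrays and 333 and 282 on the DOX arrays (-1.69 ± 0.18, adjusted p = 0.00584), and Col1a2, the partner chain of Col1a1, read 884 and 891 and then 376 and 339 (-1.36 ± 0.16, adjusted p = 0.0069). Col5a2, which sets fibril diameter, read 495 and 544 and then 191 and 199 (-1.41 ± 0.13, adjusted p = 0.00462). The replicates of each group were close for these genes, and the groups were several times further apart. The other collagen VI chains Col6a3 and Col6a1 fell by 1.37 ± 0.16 and 1.01 ± 0.21, and Col15a1, which joins basement membrane to the surrounding matrix, read 279 and 303 and then 93.7 and 106 (-1.45 ± 0.15, adjusted p = 0.00535). Col4a1, the main chain of basement membranes, read 2504 and 2304 and then 1230 and 1114 (-1.10 ± 0.14, adjusted p = 0.00901), while its partner Col4a2 was at 1899 and 1521 and then 1370 and 986 (-0.62 ± 0.19, adjusted p = 0.13, 0.0163 with the replicate block). Col5a1 and Col8a1 fell by 0.79 ± 0.13 and 0.83 ± 0.15. Of the members not called, Col5a3 was at -0.59 ± 0.14 (adjusted p = 0.065, 0.00914 with the block), Col14a1 at -0.83 ± 0.20 (0.0698, 0.0154 with the block) and Col18a1, the precursor of endostatin, at -0.53 ± 0.25 with overlapping arrays (0.345, 0.0209 with the block). With saline 1, saline 2, DOX 1 or DOX 2 left out, 6, 4, 9 and 2 collagens were called. In whole hearts, fewer cells of a type and less RNA per cell cannot be told apart, here and in the lists of cell markers below.

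In the list of collagen folding and crosslinking, 4 of 15 measured genes fell and none rose (7 and 1 with the block), with a median of -0.34. Serpinh1, the collagen chaperone HSP47, read 2744 and 2581 and then 766 and 648 (-1.95 ± 0.28, adjusted p = 0.0124). Pcolce, which speeds removal of the procollagen tail, read 597 and 908 and then 269 and 270 (-1.48 ± 0.20, adjusted p = 0.0111). P4ha1, a prolyl hydroxylase, and Sparc, a collagen-binding matricellular protein, fell by 1.23 ± 0.23 and 1.28 ± 0.26. Of the crosslinking enzymes, Loxl1 was at -1.12 ± 0.27 (adjusted p = 0.076, 0.0138 with the block) and Lox at +0.42 ± 0.14, 129 and 149 and then 190 and 189 (adjusted p = 0.161, 0.0486 with the block). Plod1 was at -0.55 ± 0.13 (0.0754, 0.0147 with the block) and Ppib at -0.35 ± 0.12 (0.17, 0.0471 with the block). When saline 1, saline 2, DOX 1 or DOX 2 was left out, 1, 0, 1 and 0 of the list's genes were called.

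Of 27 measured genes for basement membrane and glycoproteins, 5 fell and 1 rose (10 and 2 with the block), with a median of -0.26. Postn, periostin, a mark of activated fibroblasts, read 633 and 767 and then 144 and 281 (-1.80 ± 0.25, adjusted p = 0.0121). The proteoglycan Bgn read 1804 and 2057 and then 971 and 959 (-1.08 ± 0.12, adjusted p = 0.00645), and Vcan (-0.84 ± 0.14), Ogn (-0.63 ± 0.12) and the laminin linker Nid1 (-0.91 ± 0.15) fell less. Thbs2, a thrombospondin, went the other way, at 185 and 181 and then 321 and 330 (0.76 ± 0.12, adjusted p = 0.0159), and its other probe sets read 0.98 to 1.79. Fn1, fibronectin, was at -0.63 ± 0.14 (adjusted p = 0.0508, 0.0119 with the block), Hspg2 at -0.62 ± 0.15 (0.072, 0.00868 with the block) and Eln, elastin, at -0.69 ± 0.19 (0.104, 0.00914 with the block). Lamb2 was at 0.48 ± 0.13 (0.0976, 0.0252 with the block). On leaving out saline 1, saline 2, DOX 1 or DOX 2, 1, 0, 2 and 1 of these 27 were called.

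Among 17 measured metalloproteinases and their inhibitors, 2 fell and 1 rose, with a median of -0.15 (0.02 without DOX 2). Timp3, an inhibitor bound to the matrix, read 793 on each saline array and 1590 and 1657 on the DOX arrays (0.93 ± 0.16, adjusted p = 0.0233), and its 3 other probe sets read 0.82 to 0.95. The sheddase Adam17 fell by 0.75 ± 0.14. Adamts9 fell by 0.72 ± 0.15 on 1 probe set while its other read 0.06. Without saline 1, saline 2, DOX 1 or DOX 2, 0 of the 17 were called in each case.

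Among 30 measured genes of TGF-beta, BMP and CCN signalling, none was called, 2 and 3 were higher and lower with the block, and the median was 0.01. Ccn2, connective tissue growth factor, had the widest change, from 375 and 430 to 1910 and 1644 (2.05 ± 0.53, adjusted p = 0.0882, 0.0172 with the block). Ltbp4, which tethers latent TGF-beta to the matrix, was at -1.03 ± 0.22 (0.0523, 0.00198 with the block) and Bmp6 at 0.70 ± 0.17 (0.0722, 0.0215 with the block). Tgfb3 was at -0.35 ± 0.11 (0.155, 0.0464 with the block).

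Of 17 measured fibroblast markers, 5 fell and 1 rose, with a median of -0.41. Dpt, dermatopontin, read 1700 and 2141 and then 932 and 965 (-1.08 ± 0.15, adjusted p = 0.0114). Pi16 read 359 and 371 and then 151 and 119 (-1.40 ± 0.19, adjusted p = 0.0111), but its other probe set read -0.27. Islr (-1.14 ± 0.16), Serpinf1, the anti-angiogenic factor PEDF (-1.05 ± 0.13), and the microfibril gene Mfap5 (-0.91 ± 0.14) also fell. Dpep1, a membrane dipeptidase, rose, from 478 and 525 to 868 and 909 (0.74 ± 0.14, adjusted p = 0.034). Lum, lumican, had wide gaps between replicates, at 1091 and 1964 and then 587 and 953 (-1.04 ± 0.31, adjusted p = 0.131, 0.00347 with the block). With saline 1, saline 2, DOX 1 or DOX 2 left out, 2, 0, 2 and 0 fibroblast markers were called.

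**Figure D3:**
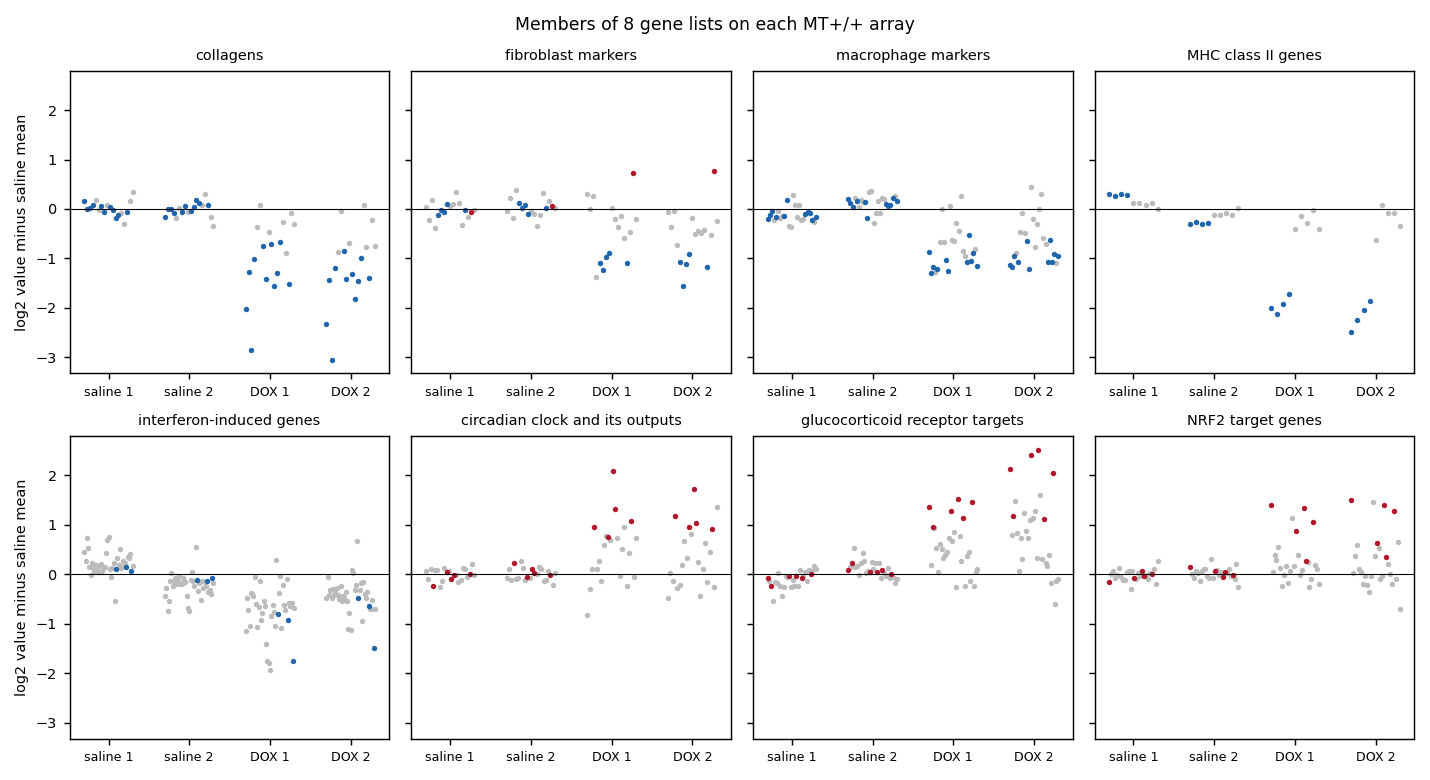
Members of 8 gene lists on each MT+/+ array, as the normalized log2 value minus the mean of the 2 saline arrays (1 point per gene and array, members side by side within an array; red called higher, blue called lower, grey not called). The 4 called MHC class II genes lie far below the saline mean on both DOX arrays, and most interferon-induced genes lie below it on both without being called.

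All 24 macrophage markers listed were measured, 11 fell and none rose (18 and none with the block), with a median of -0.84. Lyz2, lysozyme of macrophages and granulocytes, read 2790 and 3539 on the saline arrays and 1275 and 1426 on the DOX arrays (-1.23 ± 0.16, adjusted p = 0.0108). The complement C1q chains that resident macrophages make moved together: C1qa read 1877 and 2070 and then 901 and 1077 (-1.08 ± 0.13, adjusted p = 0.00719), C1qc fell by 1.15 ± 0.15, and C1qb was at -1.08 ± 0.24 (adjusted p = 0.0558, 0.00154 with the block). Ctss, a lysosomal protease of antigen-presenting cells, read 1075 and 870 and then 416 and 450 (-1.23 ± 0.16, adjusted p = 0.0101). Adgre1, which encodes the F4/80 antigen, read 286 and 342 and then 147 and 205 (-0.84 ± 0.18, adjusted p = 0.0469), and the lysosomal marker Cd68 read 164 and 213 and then 95.0 and 79.5 (-0.99 ± 0.16, adjusted p = 0.019). Each was lower on both DOX arrays than on either saline array, as was every gene called lower. Tyrobp (-1.07 ± 0.13), Ly86 (-1.06 ± 0.21), Cbr2 (-0.91 ± 0.18) and Aif1 (-0.58 ± 0.11) fell as well. Laptm5 fell by 1.06 ± 0.12 on its brightest probe set, with others from -0.61 to 0.14. The pan-leukocyte genes outside this list, Ptprc (CD45) and Lcp1 (the leukocyte actin bundler L-plastin), read 157 and 189 and then 59.6 and 67.7 (-1.26 ± 0.14, adjusted p = 0.00643), and 437 and 458 and then 153 and 113 (-1.71 ± 0.18, adjusted p = 0.00587). The Fc receptor genes Fcer1g and Fcgr3 and the chemokine Pf4 were at -0.84 ± 0.19, -0.71 ± 0.18 and -0.95 ± 0.24 and were called with the block alone (0.00223, 0.0172 and 0.0264, against 0.0656, 0.0767 and 0.0784). When saline 1, saline 2, DOX 1 or DOX 2 was left out, 7, 1, 1 and 1 macrophage markers were called, and 7 without either labelled MT-/- saline array.

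Among the MHC class II genes, which present peptides to helper T cells, the calls were Cd74, H2-Aa, H2-Ab1 and H2-Eb1. All 9 genes measured had a negative change, against 53.4% of all genes. Of 9 measured, 4 fell, none rose and the median was -0.51. Below Cd74 and H2-Aa, H2-Ab1 read 993 and 658 and then 208 and 201 (-1.99 ± 0.20, adjusted p = 0.00517), and H2-Eb1 read 597 and 412 and then 146 and 133 (-1.79 ± 0.21, adjusted p = 0.00664). In these the DOX arrays were close to each other, and saline 1 was above saline 2 by a wider gap that was still small beside the change. The loading chaperone H2-DMa was at -0.51 ± 0.14 (adjusted p = 0.101, 0.0148 with the block). Ciita, the regulator of the class II genes, was dim and level, at 108 and 86.0 and then 92.2 and 90.6 (-0.04 ± 0.13, adjusted p = 0.916). Ctsh was at -0.37 ± 0.18 and H2-Oa at -0.18 ± 0.13, neither called. The class II calls held better than most, at 4, 4, 4 and 2 without saline 1, saline 2, DOX 1 or DOX 2.

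Of 39 measured interferon-induced genes, 3 fell and none rose, 14 fell with the block, and the median was -0.57. Of these 39, 38 had a negative change, against 53.4% of all genes, and 28 had both DOX arrays below both saline arrays, against 24.3%. Cxcl9, a T cell attractant induced by interferon gamma, read 226 and 201 and then 53.2 and 68.8 (-1.62 ± 0.13, adjusted p = 0.00255). B2m, the light chain of MHC class I, read 6534 and 5568 and then 3043 and 3936 (-0.78 ± 0.13, adjusted p = 0.0248), and Ifitm3 read 4313 and 3803 and then 2255 and 2911 (-0.65 ± 0.14, adjusted p = 0.0482). In both, saline 1 was above saline 2 and DOX 2 above DOX 1, and the groups did not overlap, as in every gene called. Gbp3, an interferon-induced GTPase, read 738 and 411 and then 158 and 264 (-1.43 ± 0.31, adjusted p = 0.0523, 0.0153 with the block). Ly6e (-0.69 ± 0.16), Ddx58, the RNA sensor RIG-I (-0.52 ± 0.12), and Oas2 (-0.59 ± 0.15) were called with the block alone (0.00806, 0.0141 and 0.0232). On leaving out saline 1, saline 2, DOX 1 or DOX 2, 1, 2, 1 and 1 of the list were called.

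Other immune lists gave 0 to 3 calls each. Calls made up 13.6% of the measured complement list and 20% of the lymphocyte list, against 7.69% of the interferon list. Of 35 measured chemokines, cytokines and receptors, 1 fell and none rose, with 10 falls with the block and a median of -0.20: Ccl12, a monocyte attractant, read 199 and 184 and then 122 and 127 (-0.58 ± 0.11, adjusted p = 0.0364). Ccl9 was at -0.69 ± 0.15 (0.0513, 0.00781 with the block), Il15 at -0.74 ± 0.18 (0.0783, 0.00418 with the block) and Cxcl12, made by stromal cells, at -0.50 ± 0.13 (0.0937, 0.0239 with the block). Of 22 measured genes for complement and acute phase, 3 fell and none rose (7 and 3 with the block): C1qa and C1qc, above, and Cfp, properdin, at 231 and 235 and then 129 and 168 (-0.64 ± 0.13, adjusted p = 0.0464). C1s1 was at -0.56 ± 0.13 (0.0615, 0.0138 with the block). Of 24 B and T lymphocyte markers, 10 were measured and 2 fell: Cd52, also found on other leukocytes, read 226 and 205 and then 109 and 116 (-0.88 ± 0.13, adjusted p = 0.0156), and Coro1a, a leukocyte actin regulator, fell by 1.20 ± 0.19. The defining T cell genes Cd3e and Cd4 were dim, at 88.7 to 108 and 142 to 186, with changes of -0.09 ± 0.12 and -0.19 ± 0.13. None of 12 measured neutrophil markers was called (1 without DOX 1), and 1 with the block: Lcn2, an iron-scavenging acute phase protein, read 104 and 139 and then 208 and 398 (1.19 ± 0.27, adjusted p = 0.0615, 0.00342 with the block). S100a8, a neutrophil calcium-binding protein, read 137 and 541 and then 238 and 273 (-0.11). None of 35 measured genes of NF-kB and toll receptor signalling was called (1 higher and 3 lower with the block). Without saline 2, 0 genes of the chemokine, complement and lymphocyte lists were called.

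Of 15 measured cardiac stress and fetal genes, 2 rose and 1 fell (3 and 3 with the block). Myh7, the slow myosin heavy chain that the mouse heart uses before birth, stood apart, from 198 and 194 to 13256 and 14751 (6.03 ± 0.12, adjusted p = 1.6e-07), while Myh6, the adult chain, was at 14847 and 15358 and then 13917 and 13058 (-0.21 ± 0.06, adjusted p = 0.101, 0.0297 with the block). Acta1, skeletal alpha-actin, another gene of the fetal and stressed heart, moved the opposite way, from 4621 and 3665 to 1208 and 1170 (-1.78 ± 0.28, adjusted p = 0.0187). Ankrd1, a titin-bound protein that responds to strain, read 5188 and 3379 and then 9472 and 8447 (1.08 ± 0.20, adjusted p = 0.0332). The natriuretic peptides were not called: Nppa read 2038 and 1356 and then 2710 and 2154 (0.45 ± 0.24, adjusted p = 0.422), and Nppb read 3453 and 2209 and then 4657 and 2847 (0.36 ± 0.39, adjusted p = 0.728), with overlapping groups in each. Acta2, smooth muscle actin, was at -1.16 ± 0.29 (0.084, 0.00677 with the block), and Cited4 at -1.28 ± 0.33 (0.0892, 0.011 with the block). Without saline 1, saline 2, DOX 1 or DOX 2, 2, 1, 1 and 1 of these genes were called.

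Genes of the Z-disc and M-band, which anchor thin and thick filaments, gave 3 rises and no fall among 17 measured, with a median of 0.15. Nrap, found at nascent myofibrils and intercalated discs, read 1390 and 1523 and then 2893 and 2815 (0.88 ± 0.10, adjusted p = 0.00664). Des, desmin, read 5231 and 4729 and then 6882 and 6648 (0.45 ± 0.09, adjusted p = 0.049), while its other probe set read -0.03. Myom2, which bridges myosin at the M-band, rose by 1.51 ± 0.13, with its 3 other probe sets at 0.13 to 1.88. Tcap, the titin cap, was at 0.59 ± 0.19 and was not called. None of 16 measured genes for thick and thin filament was called (2 higher and 2 lower with the block); Lmod2, which lengthens thin filaments, was at 0.67 ± 0.21 (adjusted p = 0.138, 0.0457 with the block) and Mylk3, the cardiac myosin light chain kinase, at 0.44 ± 0.15 (0.191, 0.0466 with the block). With saline 1, saline 2, DOX 1 or DOX 2 left out, 2, 2, 2 and 1 of the Z-disc and M-band genes were called.

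Of 20 measured calcium handling genes, 1 fell and none rose (4 and 1 with the block), and the median was -0.26. A negative change was found in 17, against 53.4% of all genes. Casq2, the calcium store protein of the sarcoplasmic reticulum, read 6340 and 6661 and then 3844 and 3822 (-0.75 ± 0.11, adjusted p = 0.0153). Ryr2, the release channel, read 2740 and 3167 and then 1592 and 2204 (-0.69 ± 0.15, adjusted p = 0.055, 0.00428 with the block), Trdn, triadin, which joins these proteins, was at -0.52 ± 0.16 (0.135, 0.0103 with the block), and Hrc, another luminal calcium binder, at -0.38 ± 0.13 (0.162, 0.0224 with the block). Cacna1c, the L-type channel, was at +0.48 ± 0.17 (0.206, 0.027 with the block). Casq2 lost its call without any 1 of the 4 MT+/+ arrays. None was called among 22 measured potassium, sodium and pacemaker channels, 20 genes of adrenergic, muscarinic and angiotensin signalling, 14 of intercalated disc and gap junctions, 11 atrial and conduction markers or 30 cardiac transcription factors; with the block 1, 3, 1, 1 and 3 of these were. The largest of these with small p were Pde4b, a cAMP phosphodiesterase, at -0.86 ± 0.20 (0.0619, 0.0123 with the block), Gja1, the gap junction protein connexin 43, at -0.63 ± 0.17 with 4263 and 4962 and then 3314 and 2483 (0.109, 0.0419 with the block), and Irx3 at 0.77 ± 0.21 (0.0944, 0.0324 with the block).

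Both metallothioneins rose in MT+/+ hearts, from the signals given above: Mt1 by 1.02 ± 0.12 (adjusted p = 0.00719) and Mt2 by 1.85 ± 0.30 (adjusted p = 0.019). Mt1 is read by a probe set of a kind that can match related transcripts, and its other probe set read 0.38. Mt2 varied on DOX, with array 2 far above array 1. Among the 18 other measured genes of metallothionein and zinc transport, none was called; Mt4, a squamous-epithelium form, was dim, at 0.34 ± 0.14, and the zinc transporters Slc39a11, Slc30a6 and Slc39a1 were at -0.38 ± 0.15, -0.25 ± 0.13 and -0.25 ± 0.15. Without saline 2 neither metallothionein was called, and without saline 1 only 1 was. Their promoters are shown because both genes moved. The windows are those of RefSeq on GRCm38.p6, 250 bases before to 50 bases after the start, in lower case with matches to the core of the metal response element, TGCACNC or TGCGCNC on either strand, in capitals. Mt1 lies at chr8:94178839-94179138 (plus strand) and has 3 matches, and Mt2 at chr8:94172368-94172667 (plus strand) has 4. Of 16 uncalled members of the list with a window, 8 have at least 1, as do 25.7% of all 32851 promoter windows. Here and below, a gene counts when any of its windows matches, while the share of all windows is counted per window, so the 2 are unlike measures. None of the matches overlapped a match to another motif searched here.

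Mt1: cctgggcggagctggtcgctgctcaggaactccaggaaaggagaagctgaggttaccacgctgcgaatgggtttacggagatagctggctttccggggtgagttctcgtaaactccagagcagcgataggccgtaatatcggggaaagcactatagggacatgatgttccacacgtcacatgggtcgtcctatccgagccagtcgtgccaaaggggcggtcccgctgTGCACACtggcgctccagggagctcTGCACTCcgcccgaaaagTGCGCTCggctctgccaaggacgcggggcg
Mt2: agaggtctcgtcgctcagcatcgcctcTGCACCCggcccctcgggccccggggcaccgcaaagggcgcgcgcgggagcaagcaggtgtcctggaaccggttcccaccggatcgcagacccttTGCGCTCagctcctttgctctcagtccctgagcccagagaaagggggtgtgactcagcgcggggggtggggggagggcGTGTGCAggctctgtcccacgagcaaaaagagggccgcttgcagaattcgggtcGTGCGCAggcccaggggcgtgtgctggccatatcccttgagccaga

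NRF2 is the transcription factor that answers oxidants and electrophiles by switching on detoxifying enzymes. Of 31 NRF2 target genes 26 were measured, 5 rose, none fell (8 and none with the block), and the median was 0.16. Nqo1, a quinone reductase that accepts anthracyclines, read 349 and 437 and then 1093 and 1192 (1.45 ± 0.16, adjusted p = 0.00611). Ephx1, which hydrolyses epoxides, read 366 and 335 and then 940 and 1009 (1.38 ± 0.14, adjusted p = 0.005), and Aox1, an aldehyde oxidase, read 216 and 208 and then 461 and 550 (1.16 ± 0.19, adjusted p = 0.0198). All 3 were more than 2-fold higher. Gstm1, a glutathione transferase, rose by 0.75 ± 0.12 on a probe set that can match its paralogues, with others of the gene at 0.04 to 0.95, and Fth1, ferritin heavy chain, went from 11330 and 12300 to 14295 and 15028 (0.30 ± 0.06, adjusted p = 0.0415). Gsta3 was at 1.30 ± 0.28 (adjusted p = 0.0523, 0.000734 with the block) and Gstm2 at 0.45 ± 0.12 (0.106, 0.0264 with the block). Hmox1, heme oxygenase 1, read 116 and 123 and then 144 and 189 (0.44 ± 0.19, adjusted p = 0.294), and Gclm, of glutathione synthesis, read 377 and 341 and then 485 and 489 (0.37 ± 0.15, adjusted p = 0.261), neither called. The core of the antioxidant response element, TGACNNNGC on either strand, was in no window of the 5 called genes. It was found in 8 of 15 uncalled members with a window and, counted per window, in 12.4% of all windows. When saline 1, saline 2, DOX 1 or DOX 2 was left out, 2, 2, 2 and 1 NRF2 targets were called.

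Of 24 measured antioxidant enzymes, 1 rose and 2 fell (1 and 6 with the block), with a median of -0.17. Gpx3, the secreted glutathione peroxidase, read 2236 and 2217 and then 4032 and 4941 (0.95 ± 0.11, adjusted p = 0.00688). Its cytosolic relative Gpx1 read 1996 and 2267 and then 1467 and 1361 (-0.66 ± 0.12, adjusted p = 0.0317), and Sod3, the extracellular superoxide dismutase, read 546 and 662 and then 330 and 317 (-0.94 ± 0.14, adjusted p = 0.0142). Txnrd2, the mitochondrial thioredoxin reductase, was at -0.51 ± 0.13 (0.0802, 0.0184 with the block), Glrx5 at -0.44 ± 0.12 (0.0952, 0.027 with the block) and Glrx at -0.51 ± 0.16 (0.135, 0.0391 with the block). In iron handling, which matters to DOX because iron catalyses radical formation, 3 of 19 measured genes rose and none fell (5 and 2 with the block): Fth1, above, Slc25a28, the mitochondrial iron importer mitoferrin 2, at 275 and 255 and then 562 and 604 (1.06 ± 0.17, adjusted p = 0.0172), and Iscu, the scaffold on which iron-sulphur clusters are built, at 1942 and 1933 and then 3061 and 2782 (0.53 ± 0.11, adjusted p = 0.0434). Hjv, a regulator of hepcidin, was at -0.78 ± 0.20 (0.084, 0.0114 with the block), and Slc25a37, mitoferrin 1, at -0.81 ± 0.23 (0.111, 0.0292 with the block). In anthracycline metabolism and drug efflux, 3 of 22 measured genes rose and none fell: Nqo1, Sult1a1 and Xdh, xanthine dehydrogenase, which read 630 and 531 and then 1110 and 1287 (0.94 ± 0.14, adjusted p = 0.0162). The efflux pump Abcg2 was at 0.70 ± 0.24 (0.179, 0.027 with the block). Without saline 2, 0 antioxidant and 0 iron genes were called, and 1 of the drug genes. Without DOX 2, 0 genes of these 3 lists were called.

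Glucocorticoid receptor targets had the highest list median. All 28 were measured, 6 rose, none fell (16 and none with the block), and the median was 0.65. A positive change was found in 24, against 46.6% of all genes. Fkbp5, a chaperone of the receptor that it induces as a brake, read 235 and 261 on the saline arrays and 663 and 1186 on the DOX arrays (1.74 ± 0.26, adjusted p = 0.0156). Map3k6, a kinase, read 73.3 and 79.4 and then 177 and 182 (1.13 ± 0.11, adjusted p = 0.005). Fam107a read 117 and 118 and then 356 and 746 (2.02 ± 0.36, adjusted p = 0.0285), and Sult1a1, a sulphotransferase, 561 and 568 and then 1665 and 2523 (1.76 ± 0.33, adjusted p = 0.0331). DOX 2 read higher than DOX 1 in each of the last 2 and in Fkbp5, while the saline replicates were close. Per1 and Mt2 were the other 2 that rose. Zfp36, an RNA-decay factor, was at 1.06 ± 0.25 (adjusted p = 0.0685, 0.00213 with the block), Glul, glutamine synthetase, at 0.91 ± 0.22 (0.075, 0.00152 with the block), and Nfkbia, the NF-kB inhibitor, at 0.92 ± 0.22 (0.075, 0.00263 with the block). On leaving out saline 1, saline 2, DOX 1 or DOX 2, 1, 1, 5 and 2 were called. The glucocorticoid response element was searched as GNACA followed after 3 bases by TGTNC on either strand. At least 1 window matched in 2 of the 6 called genes and in 1 of 16 uncalled members with a window. Counted per window and not per gene, 0.475% of all windows matched. The 2 called genes are Map3k6, at chr4:133240568-133240867 (plus strand) with a match 181 bases before the start, and Fam107a, at chr14:8309730-8310029 (minus strand). In Fam107a a match lies 118 bases before the start of this window and 120 bases before that of another of its 3 windows. A window of each gene is shown with the match in capitals. No match overlapped another motif searched here.

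Map3k6: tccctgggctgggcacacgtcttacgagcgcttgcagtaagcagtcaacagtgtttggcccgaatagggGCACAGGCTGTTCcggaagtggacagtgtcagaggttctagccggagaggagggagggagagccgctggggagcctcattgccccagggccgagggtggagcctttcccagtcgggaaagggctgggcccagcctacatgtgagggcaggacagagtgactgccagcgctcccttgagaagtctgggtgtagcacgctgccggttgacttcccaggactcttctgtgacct
Fam107a: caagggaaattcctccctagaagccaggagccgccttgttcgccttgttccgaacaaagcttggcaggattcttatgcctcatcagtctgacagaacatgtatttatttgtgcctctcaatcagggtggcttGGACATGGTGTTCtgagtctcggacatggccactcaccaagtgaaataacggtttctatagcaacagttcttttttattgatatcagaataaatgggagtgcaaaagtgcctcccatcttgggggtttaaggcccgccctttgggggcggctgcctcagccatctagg

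The circadian clock is a loop in which CLOCK and BMAL1 switch on their own repressors and output genes by way of E-boxes. Of 22 measured clock and output genes, 5 rose and none fell (9 and 1 with the block), with a median of 0.47. Below Dbp, Tef, its relative among the output transcription factors, read 327 and 336 and then 869 and 736 (1.18 ± 0.17, adjusted p = 0.0121). Per1, a repressor of the loop, read 130 and 173 and then 298 and 363 (1.06 ± 0.22, adjusted p = 0.0452). Usp2, a deubiquitinase with daily rhythm, read 472 and 470 and then 1070 and 963 (1.01 ± 0.19, adjusted p = 0.0364), and Nr1d2, the repressor REV-ERB beta, 789 and 751 and then 1371 and 1618 (0.86 ± 0.18, adjusted p = 0.0482). In all 5 both DOX arrays were above both saline arrays, as in every gene called higher. Arntl, which encodes BMAL1, moved the other way without a call, at 217 and 193 and then 110 and 146 (-0.65 ± 0.20, adjusted p = 0.134, 0.0204 with the block). Cry2 was at 0.64 ± 0.17 (0.103, 0.0119 with the block) and Rora at 0.74 ± 0.22 (0.122, 0.0339 with the block), with other Rora probe sets from -0.27 to 0.65. The sources used here do not give the hour at which hearts were taken. Without saline 1, saline 2, DOX 1 or DOX 2, 0 genes of the list were called in each case. Genes were again counted by any window, and the shares of all windows per window. The D-box TTANGTAA was found in 0 of 5 called genes, 1 of 13 uncalled members with a window and 2.32% of all windows. The E-box CACGTG was found in 2 of the 5 called genes, 3 of 13 uncalled members with a window and 7.15% of all windows. The 2 were Per1, at chr11:69098699-69098998 (plus strand) with an E-box 166 bases before the start of this window and none in its other window, and Tef, at chr15:81802423-81802722 (plus strand) with 1 at 127 bases before the start and 1 at 138 bases before that of its other window; 1 window of each is shown, with the E-box in capitals.

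Per1: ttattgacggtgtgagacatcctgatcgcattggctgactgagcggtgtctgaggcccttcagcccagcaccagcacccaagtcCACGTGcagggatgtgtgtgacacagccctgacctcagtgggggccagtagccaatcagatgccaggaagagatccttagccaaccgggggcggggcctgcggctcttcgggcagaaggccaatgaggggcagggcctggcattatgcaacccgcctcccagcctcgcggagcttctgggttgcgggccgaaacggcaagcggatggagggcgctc
Tef: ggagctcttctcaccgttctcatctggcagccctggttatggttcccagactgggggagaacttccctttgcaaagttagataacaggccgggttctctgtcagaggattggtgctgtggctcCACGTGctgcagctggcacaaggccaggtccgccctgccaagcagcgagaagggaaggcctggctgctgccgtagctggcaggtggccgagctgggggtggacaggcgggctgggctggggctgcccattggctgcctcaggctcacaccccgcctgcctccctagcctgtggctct

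Heat shock and cold-induced genes went both ways. Of 25 measured, 2 rose and 2 fell (3 and 5 with the block), with a median of -0.28. Cirbp, an RNA-binding protein induced by mild cold, and Srsf5, a splicing factor, rose, Srsf5 from 921 and 804 to 2574 and 1967 (1.29 ± 0.24, adjusted p = 0.0344). The chaperones Hsph1, of the HSP110 family, and Dnaja1, an HSP40, fell, Hsph1 from 396 and 573 to 133 and 176 (-1.61 ± 0.21, adjusted p = 0.00895) and Dnaja1 from 1124 and 1712 to 592 and 684 (-1.20 ± 0.19, adjusted p = 0.0179). Saline 2 was above saline 1 in both chaperones, and both DOX arrays were below both saline arrays, as in every gene called lower. Hspb6 was at -0.34 ± 0.09 (0.108, 0.0365 with the block). With saline 1, saline 2, DOX 1 or DOX 2 left out, 3, 1, 1 and 1 of the list were called.

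Of 27 measured immediate early genes, 1 rose and none fell, 8 rose with the block, and the median was 0.41. A positive change was found in 23, against 46.6% of all genes. Ppp1r15a, or GADD34, which lifts the translation block of stressed cells, read 163 and 177 and then 368 and 431 (1.15 ± 0.24, adjusted p = 0.0452). Atf3, a stress transcription factor, had wide replicates on DOX, 87.1 and 112 and then 362 and 206 (1.36 ± 0.48, adjusted p = 0.19). Myc was at 0.43 ± 0.11 (0.0747, 0.0193 with the block) and Csrnp1 at 0.79 ± 0.25 (0.141, 0.0209 with the block). In the list of ER stress and amino acid response, 2 of 37 measured genes rose and none fell (6 and 2 with the block): Herpud1, of ER-associated degradation, read 1370 and 1238 and then 2407 and 4042 (1.17 ± 0.21, adjusted p = 0.0284), and Slc3a2, the heavy chain of amino acid exchangers, 304 and 287 and then 507 and 535 (0.75 ± 0.13, adjusted p = 0.0277). Atf5, a transcription factor of the same response, was at -0.73 ± 0.20 (0.0997, 0.00843 with the block) and Nupr1 at -0.58 ± 0.14 (0.0761, 0.0118 with the block), while Dnajb9 was at 0.77 ± 0.21 (0.102, 0.00529 with the block). Without saline 1 or saline 2 no gene of either list was called.

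In insulin, IGF and growth signalling, 2 of 29 measured genes rose and 2 fell (6 and 4 with the block). Eif4ebp1, which holds back cap-dependent translation, read 1186 and 1107 and then 2305 and 2474 (0.97 ± 0.15, adjusted p = 0.0159). Igfbp3, a carrier of IGF1, rose by 1.70 ± 0.19, and another binding protein, Igfbp7, fell from 3609 and 3270 to 1930 and 1484 (-1.03 ± 0.21, adjusted p = 0.0464), though its 2 other probe sets read -0.21 and -0.07. Grb14, an adaptor that restrains the insulin receptor, fell by 0.75 ± 0.12. Igf1 was at -0.75 ± 0.17 (0.0628, 0.0109 with the block), and the receptors Insr and Igf1r at 0.83 ± 0.21 (0.0799, 0.0148 with the block) and 0.47 ± 0.14 (0.137, 0.0148 with the block). Without saline 2 or DOX 2, 0 of the list were called.

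The lists of DNA damage and growth gave 0 to 2 calls each, or 0% to 7.14% of the members measured. DOX acts through topoisomerase II, and neither form was called: Top2b, the form of non-dividing cells, read 831 and 791 and then 857 and 915 (0.04 ± 0.13, adjusted p = 0.923), and Top2a, the form of dividing cells, read 95.6 and 103 and then 90.6 and 97.3 (-0.04 ± 0.13, adjusted p = 0.927), with its dimmer probe set at -1.26. Of 29 measured genes for DNA repair and topoisomerases, 2 rose: Tdp2, which frees topoisomerase II from DNA ends, read 133 on each saline array and 193 and 212 on the DOX arrays (0.57 ± 0.12, adjusted p = 0.0496), and Xrcc5, the Ku80 subunit of end joining, read 117 and 128 and then 209 and 202 (0.70 ± 0.14, adjusted p = 0.0388). Of 24 measured p53 target genes, 1 rose (6 higher and 1 lower with the block), with a median of 0.17: Perp, a desmosomal and apoptotic membrane protein, read 1059 and 1165 and then 2152 and 1903 (0.77 ± 0.13, adjusted p = 0.0221). Cdkn1a, the cell cycle inhibitor p21, differed widely between the DOX arrays, at 565 and 534 and then 752 and 1423 (0.82 ± 0.29, adjusted p = 0.195, 0.0502 with the block). Trp53inp1 was at 1.70 ± 0.46 (0.101, 0.00566 with the block), Sesn1 at 1.04 ± 0.27 (0.0906, 0.00802 with the block), Ddit4 at 0.69 ± 0.20 (0.12, 0.0122 with the block) and Ccng1 at -0.56 ± 0.14 (0.0781, 0.0126 with the block). Without any 1 of the 4 MT+/+ arrays, 0 p53 targets and 0 repair genes were called.

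None of 30 measured genes of cell cycle and DNA replication was called, and 7 fell and 1 rose with the block, with a median of -0.17. Cdk1, the mitotic kinase, read 85.5 and 130 and then 42.4 and 35.5 (-1.14 ± 0.27, adjusted p = 0.0664, 0.0209 with the block), Ccnd1, cyclin D1, 603 and 1089 and then 289 and 421 (-1.25 ± 0.32, adjusted p = 0.0879, 0.0077 with the block), and Mcm6 was at -0.60 ± 0.14 (0.0657, 0.0191 with the block). Cdk1 was dim, and below the array median on both DOX arrays. Of 28 measured cell death regulators, 1 rose and 1 fell (6 and 2 with the block): Bnip3, a mitophagy receptor, read 2041 and 2388 and then 4233 and 6489 (1.18 ± 0.19, adjusted p = 0.0189), and Cycs, cytochrome c, read 12442 and 13495 and then 10482 and 10948 (-0.27 ± 0.06, adjusted p = 0.0464). Bcl2l1, the survival protein BCL-XL, was at 0.93 ± 0.34 with 363 and 373 and then 538 and 1022 (adjusted p = 0.212, 0.0317 with the block). Without saline 1, saline 2 or DOX 2, 0 cell death regulators were called.

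Of 37 measured complex I subunits, 4 fell and none rose (11 and 1 with the block), with a median of -0.18, and 23 had both DOX arrays below both saline arrays, against 24.3% of all genes. Ndufs8, an iron-sulphur subunit, read 8301 and 7582 and then 4970 and 5247 (-0.62 ± 0.09, adjusted p = 0.0156). Ndufv2 and Ndufv3, of the NADH-binding module, fell by 0.38 ± 0.07 and 0.34 ± 0.06, and Ndufab1, an acyl carrier subunit, by 0.39 ± 0.07. Ndufv1, which holds the flavin, was at +0.33 ± 0.08, 5464 and 5980 and then 6983 and 7275 (adjusted p = 0.0773, 0.00913 with the block). In complexes II to V, 3 of 42 measured genes fell and none rose (7 and 1 with the block), with a median of -0.09: Cyc1, cytochrome c1, at 9342 and 8914 and then 6814 and 6504 (-0.43 ± 0.08, adjusted p = 0.0332), Atp5g1, of the ATP synthase ring, by 0.32 ± 0.07, and Cycs, above. Cox7a1, the heart and muscle isoform of a cytochrome oxidase subunit, was at -0.35 ± 0.08 (0.0657, 0.0126 with the block). In the TCA cycle, 1 of 22 measured genes rose and 1 fell (1 and 6 with the block): Idh2, the NADP-linked isocitrate dehydrogenase, read 6050 and 6832 and then 9110 and 9422 (0.53 ± 0.08, adjusted p = 0.0124), and Dlat, of pyruvate dehydrogenase, fell by 0.52 ± 0.11. The other probe set of Idh2 read 0.11. Without any 1 of the 4 MT+/+ arrays, 0 genes of these 3 lists were called.

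Of 44 measured genes for fatty acid uptake and oxidation, 3 rose and none fell (7 and none with the block), with a median of 0.07, and all 3 act on the lipid droplet. Pnpla2, the triglyceride lipase ATGL, read 1378 and 1411 and then 2668 and 2574 (0.82 ± 0.16, adjusted p = 0.0357), Lipe, hormone-sensitive lipase, 290 and 243 and then 434 and 443 (0.65 ± 0.14, adjusted p = 0.0482), and Plin5, which holds droplets at mitochondria, 1094 and 1336 and then 1881 and 2139 (0.64 ± 0.13, adjusted p = 0.0446). The droplet coat Plin4, above, also rose, and so did Cidea (0.76 ± 0.16), another droplet protein, the only one of 8 measured fat cell markers called; the fat cell genes Fabp4 and Retn were at -0.15 ± 0.07 and 0.10 ± 0.11. Mlycd, which degrades the brake on fatty acid import malonyl-CoA, was at 0.57 ± 0.13 (0.0648, 0.012 with the block), and Lpl at 0.23 ± 0.06 (0.0742, 0.0131 with the block). Of 31 measured genes for glucose uptake, glycogen and glycolysis, 1 fell and none rose (7 and none with the block): Pgk1, phosphoglycerate kinase, read 4211 and 4404 and then 2793 and 3250 (-0.51 ± 0.10, adjusted p = 0.0363). Eno3, muscle enolase, was at -0.47 ± 0.10 (0.0601, 0.00825 with the block). Of 22 measured creatine, nucleotide and polyamine enzymes, 1 rose and 1 fell (1 and 6 with the block): the creatine transporter Slc6a8 read 853 and 962 and then 1816 and 1654 (0.85 ± 0.13, adjusted p = 0.0171), and muscle creatine kinase Ckm 9548 and 9561 and then 6829 and 7386 (-0.40 ± 0.06, adjusted p = 0.0209). None was called among 22 genes of ketone and branched-chain amino acid breakdown (3 higher and 2 lower with the block) or 25 of sterol and fatty acid synthesis (1 and 1 with the block), and Bnip3 alone among 36 of mitochondrial fusion, fission and import (2 higher and 1 lower with the block). Of the ketone genes, Oxct1, which commits the heart to ketone use, was at -0.50 ± 0.13 with 7581 and 7349 and then 4912 and 5513 (0.0952, 0.0185 with the block). Without any 1 of the 4 MT+/+ arrays, no gene of the lists for fatty acids, glycolysis, creatine or fat cells was called.

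Of 73 measured mitochondrial ribosomal proteins, 2 fell and none rose, 10 fell with the block, and the median was -0.18. The 2 falls were 2.74% of the list, against 1.45% of all genes. A negative change was found in 56, against 53.4% of all genes. In 40, both DOX arrays were below both saline arrays, against 24.3%. Mrpl42 read 7357 and 7515 and then 4869 and 5334 (-0.52 ± 0.08, adjusted p = 0.0184), and Mrpl52 fell by 0.61 ± 0.11, but its other probe sets read 0.06 to 0.09. Of 77 cytosolic ribosomal proteins, 40 were measured; none was called, 8 rose with the block, 38 had a positive change against 46.6% of all genes, 27 had both DOX arrays above both saline arrays against 22.1%, and the median was 0.15. Rps9 read 3962 and 3654 and then 5395 and 4791 (0.45 ± 0.10, adjusted p = 0.0535, 0.00576 with the block), and Rpl37a was at 0.27 ± 0.06 (0.0595, 0.00957 with the block). Many ribosomal protein genes have processed pseudogenes, so the source of these signals is uncertain. Without any 1 of the 4 MT+/+ arrays, 0 genes of both lists were called.

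Of 40 measured proteasome genes, 3 rose and none fell (9 and 3 with the block), with a median of 0.13. Psmc1 and Psmc3, ATPases of the 19S cap, rose from 691 and 790 to 1439 and 1638 (0.96 ± 0.13, adjusted p = 0.0111) and from 1835 and 1676 to 2712 and 2730 (0.53 ± 0.11, adjusted p = 0.0491), and Psmd4, a ubiquitin receptor of the cap, by 0.98 ± 0.11, with its other probe sets at -0.07 to 1.09. The interferon-induced members Psme1 and Psmb9 lay the other way, at -0.65 ± 0.15 (0.0654, 0.00376 with the block) and -0.59 ± 0.16 (0.093, 0.0273 with the block). Of 38 measured muscle atrophy ligases and autophagy genes, 4 rose and 1 fell (9 and 1 with the block), with a median of 0.15. Trim54, the muscle ligase MuRF3, read 1039 and 1199 and then 2871 and 2897 (1.26 ± 0.11, adjusted p = 0.00451). Map1lc3b, the autophagosome protein LC3B, read 3178 and 2769 and then 5562 and 5115 (0.83 ± 0.11, adjusted p = 0.00867), and its cargo receptor Sqstm1, p62, 2398 and 1930 and then 3833 and 4508 (0.90 ± 0.14, adjusted p = 0.0181), with its other probe set at -0.08. Bnip3 was the fourth. The lysosomal protease Ctsb fell from 4060 and 4528 to 2681 and 2666 (-0.68 ± 0.10, adjusted p = 0.016), while another, Ctsl, was at 0.87 ± 0.20 (0.0619, 0.00642 with the block). Gabarapl1, of the LC3 family, varied on DOX, at 824 and 1112 and then 1377 and 2690 (0.91 ± 0.32, adjusted p = 0.191, 0.00589 with the block). When saline 1, saline 2, DOX 1 or DOX 2 was left out, 1, 0, 1 and 0 proteasome genes and 3, 1, 2 and 1 atrophy and autophagy genes were called. Among 42 measured splicing factors and RNA binding proteins, Srsf5 rose and Srsf6 fell (5 and 2 with the block); Srsf6 fell by 3.27 ± 0.21 on its brightest probe set, from 1435 and 2254 to 205 and 164, while its 3 others lay between -0.62 and 0.33. Clk1, a kinase of such factors, was at 0.64 ± 0.20 (0.153, 0.00786 with the block). None of 24 measured histones and chromatin enzymes was called (1 higher and 1 lower with the block); Sirt1, a deacetylase, was at 0.88 ± 0.29 (0.166, 0.00239 with the block).

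Of 24 measured endothelial markers, 2 fell and none rose (6 and 1 with the block), with a median of -0.18: Aplnr, the apelin receptor, at -2.69 ± 0.31, with its other probe set at -1.56, and Cav1, the coat of caveolae, from 3665 and 4260 to 2548 and 2868 (-0.56 ± 0.11, adjusted p = 0.0382). Kdr, the main VEGF receptor, read 1292 and 1009 and then 779 and 473 (-1.0 ± 0.27, adjusted p = 0.104, 0.00176 with the block), and Sox18 was at -0.88 ± 0.23 (0.0937, 0.00294 with the block), while its relative Sox17 was at +1.04 ± 0.35 (0.17, 0.00205 with the block). In angiogenic factors and hypoxia genes, 3 of 47 measured fell and none rose (10 and 1 with the block), with a median of -0.08: Aplnr, Nrp1, a co-receptor of VEGF and semaphorins, from 1104 and 1287 to 727 and 583 (-0.96 ± 0.16, adjusted p = 0.0216), and Egln3, a prolyl hydroxylase of hypoxia-inducible factor, from 545 and 1043 to 237 and 289 (-1.55 ± 0.29, adjusted p = 0.0342). Angpt1 was at -0.72 ± 0.16 (0.0542, 0.0137 with the block). Of 16 measured smooth muscle and pericyte markers, 1 rose, Des, which heart muscle also makes in quantity (1 and 3 with the block), and the pericyte genes Vtn and Higd1b were at -0.55 ± 0.12 (0.0573, 0.0126 with the block) and -0.75 ± 0.21 (0.112, 0.0118 with the block). Of 25 red cell and haem synthesis genes, 12 were measured and 3 fell (6 lower and 1 higher with the block): Alas2, the first enzyme of haem synthesis in red cells, read 345 and 1085 and then 44.2 and 32.7 (-3.61 ± 0.43, adjusted p = 0.00713), Hbb-b2, a beta-globin, 416 and 346 and then 66.4 and 22.9 (-2.88 ± 0.30, adjusted p = 0.00584), and Isg20, which is also an interferon-induced exonuclease, 171 and 188 and then 89.7 and 99.4 (-0.83 ± 0.12, adjusted p = 0.0133). Of 30 measured cholesterol and lipid carriers, Ptgds rose (6 and 3 with the block), and Apod was at 1.26 ± 0.27 (0.0523, 0.00984 with the block). None of 30 measured genes of Wnt and Hippo signalling (1 higher with the block) or 10 nerve and Schwann cell markers was called. On leaving out saline 1, saline 2, DOX 1 or DOX 2, 1, 0, 1 and 1 endothelial markers, 2, 0, 1 and 1 angiogenic and hypoxia genes and 5, 2, 2 and 1 red cell genes were called.

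The mice labelled MT-/- gave a second comparison of the same drug, between other arrays, though both use 1 estimate of each gene's spread from all 8 arrays. Of the 161 genes that rose in MT+/+ hearts, 160 had a positive change in MT-/- and 124 were called higher there, and of the 188 that fell, 188 had a negative change and 158 were called lower. That is 77.0% and 84.0% of the MT+/+ calls and 34.5% and 30.5% of the 359 and 518 genes called in MT-/- (2.76% and 3.98% of genes measured), and 0 genes were called in opposite directions. The sign agreed for 71.3% of all genes measured. The exception among the rises was Plin5, at 0.64 in MT+/+ and -0.19 (adjusted p = 0.473) in MT-/-. Of these genes, 84 of 161 rises and 80 of 188 falls were larger in MT+/+. Median changes in MT+/+ and MT-/- were 0.82 and 0.83 for the rises and -0.93 and -0.99 for the falls. The genes were chosen by their MT+/+ change, which favours large values there, so this does not compare sizes evenly. Across all genes measured, which are not independent, the changes of the 2 genotypes had a Pearson correlation of 0.793 and a Spearman correlation of 0.667.

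Several groups had different counts in the 2 genotypes. Macrophage markers gave 11 falls in MT+/+ and 6 in MT-/-, with medians of -0.84 and -0.39: C1qa was at -1.08 and -0.33, Ctss at -1.23 and -0.51 and Laptm5 at -1.06 and -0.37. Glucocorticoid receptor targets gave 6 and 14 rises, with medians of 0.65 and 1.12, with Fkbp5 at 1.74 and 2.66, Fam107a at 2.02 and 3.08 and Map3k6 at 1.13 and 2.11. Neutrophil markers gave 0 and 4 rises, with Lcn2 at 1.19 and 3.90. Collagens gave 11 and 12 falls, with medians of -0.92 and -1.34. Dbp was at 1.90 and 0.83 and Mt2 at 1.85 and 1.12, each called in MT+/+ alone, while Hmox1 was at 0.44 and 1.17 and Cdkn1a at 0.82 and 1.92, each called in MT-/- alone. None of these differences is shown by test: the interaction of genotype and DOX passed for 0 of 24751 probe sets in limma with Benjamini-Hochberg adjustment, with 573 at an unadjusted p of 0.05, and for 1 with the replicate block.

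**Figure D4:**
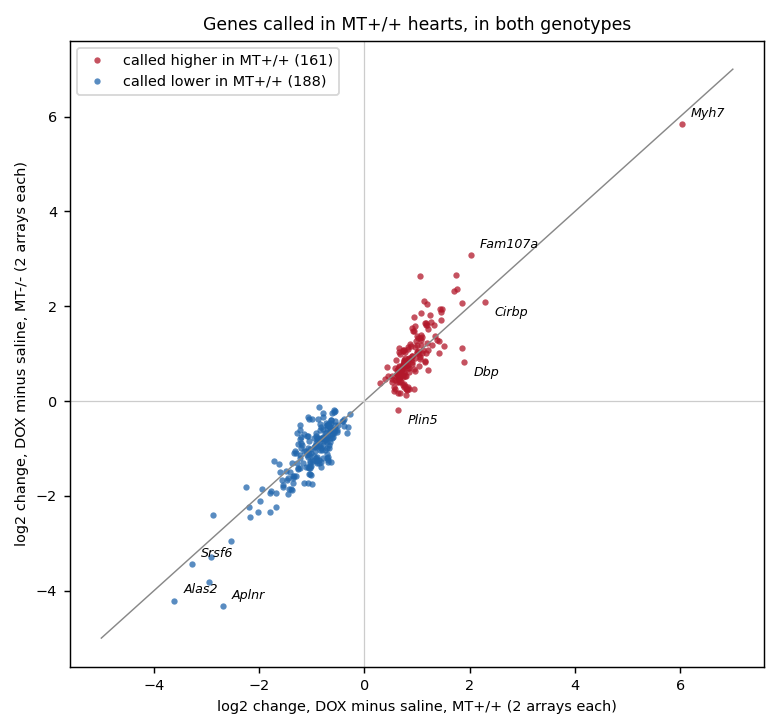
Log2 change, DOX minus saline, of the 349 genes called in MT+/+ hearts (red higher, blue lower), in MT+/+ on the horizontal axis and in mice labelled MT-/- on the vertical axis; the line marks equal change. All but Plin5 lie in the quadrants of equal sign, and Aplnr and Fam107a lie further from 0 in MT-/- while Dbp lies nearer to it.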

How the data were processed

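The deposited values are linear intensities, 1 signal per probe set and array, made with GCOS 1.4 per the submitters' processing notes; the sources used here do not give the signal algorithm or scaling target. The 64 control probe sets were left out. The platform annotation gave 1 symbol to 34945 of 45037 probe sets, several to 932 and none to 9160, and none was named from several. Arrays were quantile-normalized, values taken as log2(intensity + 16), and the 24751 probe sets that reached the array median on 2 or more of the 8 arrays kept. limma 3.58.1 (R 4.3.3) was fitted to 4 group means over all 8 arrays, with a mean-variance trend, two-sided tests and Benjamini-Hochberg adjustment over all probe sets; the brightest tested probe set stands for a gene. The number of arrays limits the precision. The procedure was tested on simulated data. Members and lists were chosen with earlier results of these data known. Genes named are ranks 1 to 40 by rise and by fall, the called members of each list with up to 4 further members of smallest p, and always Nqo1, Hmox1, Top2b, Top2a, Cdkn1a, both metallothioneins, Myh7 and the natriuretic peptides; Ptprc, S100a8 and the control and marker genes of the opening were chosen after their values were seen. The labels give replicate numbers only. The differences between replicates 2 and 1 correlated at 0.36 to 0.54 between all pairs of groups, so the number was taken as pairing the arrays and a block on it was fitted as an alternative. Other alternatives were the scaling, pseudocount, filter, trend, arrays used, mean over probe sets and leaving out each array.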

Additional observations from a re-analysis of the deposited data

How the results depend on the processing

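The counts of genes higher and lower after DOX in MT+/+, 161 and 188, and of those called in the same direction in MT-/-, 282, stayed within 1.5 times under the deposited scaling (147, 151 and 245), median centring (167, 130 and 232), a pseudocount of 1 (162, 187 and 284) or 64 (145, 182 and 269), no filter (118, 159 and 235), a stricter filter (168, 199 and 295), no trend (162, 177 and 276), MT+/+ arrays alone (139 and 147) and the mean over probe sets (226, 250 and 375). With the replicate block they were 804, 731 and 1106, and 1 probe set passed the interaction. No MT+/+ call was lost with the block, which takes the replicate number as pairing the arrays, though the labels do not say so. Of the 349 calls, 229 were kept with MT+/+ arrays alone, 270 without a filter, 272 with median centring and 282 with the deposited scaling. With either pseudocount, the stricter filter, no trend or the mean over probe sets, 307 to 346 were kept. Leaving out 1 array gave 10 to 210 genes higher, 16 to 231 lower, 25 to 353 called alike in MT-/- and 0 to 1 interaction probe sets. Signs turned for Top2b with the mean over probe sets (-0.00), and on leaving out 1 array for Top2a (-0.12 to 0.04), Top2b (-0.01 to 0.08) and Nppb (-0.04 to 0.75), none of them called in the main setting. Medians of 16 lists near 0 changed sign in at least 1 setting. With 2 arrays a group, the smallest changes called were 0.304 and -0.275 log2 units, and dim probe sets have no known detection limit.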
